A study of Mus musculus with 24 samples.

Results

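The genes described here are 39 genes of amino acid catabolism and the urea cycle, chosen by name for the pathway step that each encodes, and their expression was measured in mouse liver. All 39 were found among the 41388 genes in the files, and all 39 had enough counts to be tested, in a set of 13052 tested genes. They comprised 9 genes of the urea cycle and of its ammonia and ornithine supply, 4 of histidine breakdown, 2 serine dehydratase genes, 4 of tyrosine breakdown, 4 of tryptophan breakdown, 5 aminotransferases, 3 of lysine and proline breakdown, 6 of branched-chain amino acid and propionate breakdown, and 2 of cysteine metabolism.

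Bulk RNA sequencing was performed on livers of male mice in 4 groups, each with 5 single-mouse libraries and 1 library of pooled RNA. Adn-Lpin1-/- mice carried floxed alleles of Lpin1, which encodes the phosphatidic acid phosphohydrolase lipin 1, and the Adipoq-cre transgene, whose adiponectin promoter is active in adipocytes. WT mice were littermates with the same floxed alleles and without Cre, so that loss of Lpin1 and carriage of the transgene cannot be told apart. The paper states that mice were kept on the C57BL/6J background, and its name for the Cre line lists B6 and FVB. All mice received from 8 weeks of age a low-fat diet (LFD; 10% of kcal from fat) or a high-fat diet (HFD; 60% of kcal from fat), and were fasted for 4 hours before sacrifice. The feeding period is 5 weeks in the study's text and 16 weeks in the sample labels. The groups were WT LFD, Adn-Lpin1-/- LFD, WT HFD, and Adn-Lpin1-/- HFD, and the questions were whether loss of adipocyte Lpin1 on each diet, and the diet in each genotype, went with different expression of these genes in liver.

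The liver is the main site of amino acid breakdown. Aminotransferases and dehydratases remove the amino groups, glutamate dehydrogenase and glutaminase release ammonia, and the urea cycle, which spans the mitochondrion and the cytosol of hepatocytes, turns ammonia into urea for excretion. The carbon skeletons are left for glucose synthesis, ketone bodies or the citric acid cycle, and many of these genes are known to respond to glucagon, glucocorticoids and protein intake.

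Total counts of the 20 mice ranged from 36260187 to 81072794, and no pair of libraries of a group agreed within sampling noise. They were between 36260187 and 45999456 in WT LFD and between 51095146 and 61435897 in Adn-Lpin1-/- LFD. On HFD they were between 54036184 and 62249701 in WT and between 57550362 and 81072794 in Adn-Lpin1-/-. Every WT LFD library was thus smaller than every library of the other groups, and an effect of depth was not tested. Markers of hepatocytes were abundant in every library, with Alb, the gene of serum albumin, between 55510 and 87680 CPM. CPM is the count of a gene scaled to a common library size, here with library sizes adjusted by TMM, the trimmed mean of M values. On LFD the TMM factors averaged 0.956 for WT and 1.02 for Adn-Lpin1-/-, and on HFD 0.969 for WT and 1.06 for Adn-Lpin1-/-, so this scaling lowered the values of Adn-Lpin1-/- mice relative to a scaling by total counts. With total counts as library sizes, an alternative chosen after seeing the data, the median log2 fold change of all tested genes moved from 0.01 to 0.10 on LFD and from 0.00 to 0.13 on HFD, and the calls over all genes moved from 818 higher and 1059 lower to 1568 higher and 583 lower on LFD, and from 1288 higher and 1146 lower to 2748 higher and 430 lower on HFD. With the trend of fold change with GC content removed, also chosen after seeing the data, the calls were 593 higher and 1416 lower on LFD and 818 higher and 1617 lower on HFD. The liver is not the tissue in which the Cre is active, and the genotype labels were not checked with Lpin1.

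The 39 genes were among the more abundant transcripts of these livers. Together they took 1.99% to 2.93% of each library's counts. On the length-scaled level, in RPKM, which divides the count of a gene by its length and by the total count, their median over the mean of the 20 mice was 112, compared with 3.77 for all tested genes. The highest mean levels were those of Ass1 (argininosuccinate synthase) at 1419 RPKM, Hpd (4-hydroxyphenylpyruvate dioxygenase) at 1133 RPKM, Arg1 (arginase of the liver) at 863 RPKM, Cdo1 (cysteine dioxygenase) at 686 RPKM, and Cps1 (carbamoyl-phosphate synthase, which feeds ammonia into the cycle) at 506 RPKM. The lowest was that of Mccc1, a subunit of methylcrotonyl-CoA carboxylase in leucine breakdown, at 5.01 RPKM. The lowest count of any of the 39 genes in a single mouse was 549, for Sdsl in mouse 5 of WT LFD, so counting error was small beside the spread between mice.

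Variation between mice of the same group differed among the genes. The coefficient of variation, averaged over the 4 groups, had a median of 12.5% over the 39 genes, equal at this precision to the 12.5% over all tested genes. It was highest for Tat (tyrosine aminotransferase, a textbook target of glucocorticoids) at 49.2%, Sds (serine dehydratase) at 34.9%, and Got1 (cytosolic aspartate aminotransferase) at 34.3%, and lowest for Got2, the mitochondrial aspartate aminotransferase, at 4.66%. Tat differed by up to 5.33-fold and Sds by up to 3.57-fold between mice of 1 group.

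**Figure D1:**
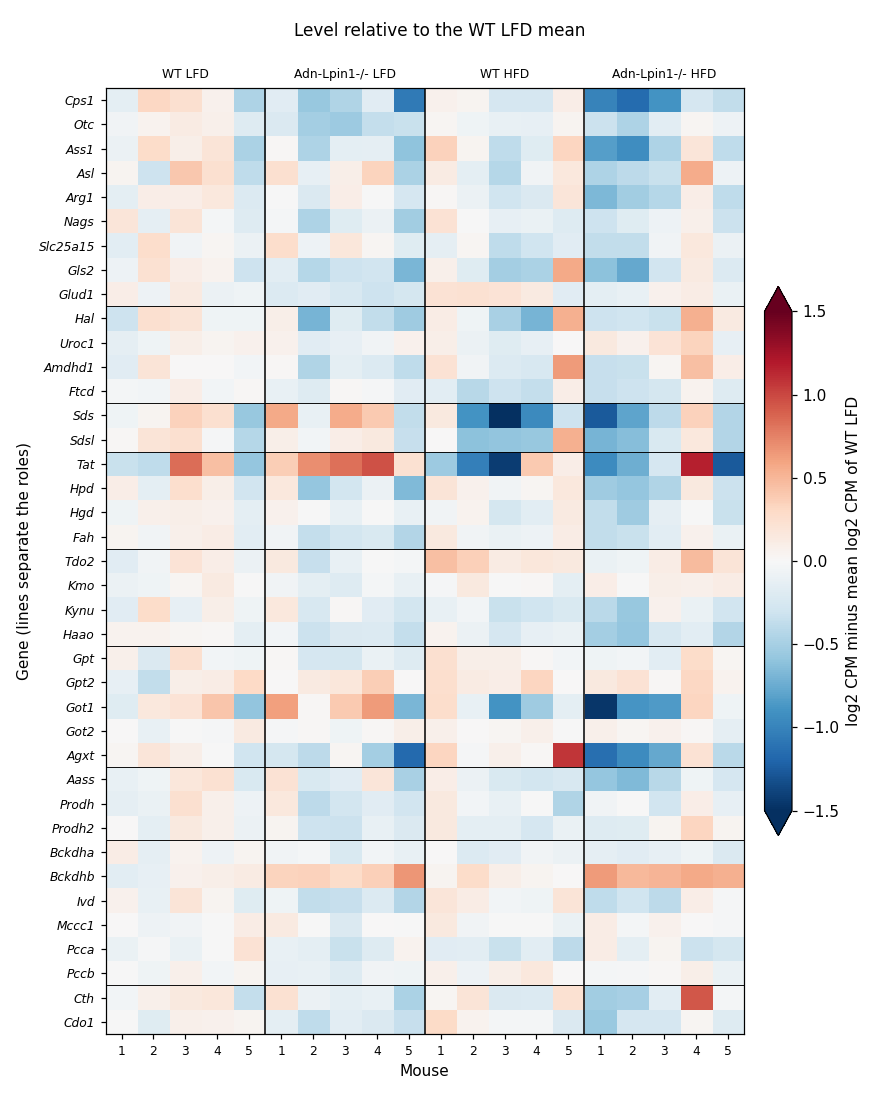
Heat map of the 39 genes (rows, with lines between the roles) in the 20 mice (columns), as log2 CPM minus the mean log2 CPM of the WT LFD mice; red is higher and blue is lower. Mouse 4 of Adn-Lpin1-/- HFD, which had the highest level of its group in 33 of the 39 genes (not counted over all tested genes), stands apart from mice 1 and 2 of that group, and Bckdhb is red in all 10 Adn-Lpin1-/- mice.

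Comparison of Adn-Lpin1-/- with WT mice on LFD addressed the effect of genotype without caloric excess. Of the 39 genes, 2 fell and 1 rose in Adn-Lpin1-/- livers. Otc, the ornithine transcarbamylase that makes citrulline, and Glud1, the glutamate dehydrogenase that releases ammonia from glutamate, were lower, and Bckdhb, the E1 beta subunit of the branched-chain ketoacid dehydrogenase, was higher. Calls rest on the quasi-likelihood test of edgeR with a Benjamini-Hochberg adjusted p, taken over all 13052 genes, that did not exceed 0.05. By this rule 8.11% of all genes were called lower and 6.27% higher. Thus 2 of 39 genes called lower and 1 of 39 called higher were not more than the share among all genes. The levels of the genotypes did not overlap for 3 of the 39 genes (Otc, Glud1 and Bckdhb), compared with 10.1% of all genes. The median log2 fold change of the 39 genes was -0.11, with 31 of 39 below 0, but with total counts as library sizes the median was -0.01, with 22 of 39 below 0. It was -0.20 with the GC trend removed, and -0.17 without mouse 1 of Adn-Lpin1-/- LFD, with 33 of 39 below 0. The median of all tested genes was 0.01 in the main fit, 0.10 with total counts and -0.03 with the GC trend removed. In each of these fits the median of the 39 genes was below it.

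On HFD, 3 of the 39 genes fell and 1 rose in Adn-Lpin1-/- livers. The genes that fell were Cps1, Haao, the 3-hydroxyanthranilate dioxygenase of the kynurenine pathway, and Agxt, the alanine-glyoxylate aminotransferase that detoxifies glyoxylate in peroxisomes. The gene that rose was again Bckdhb. In the same edgeR quasi-likelihood test, 8.78% of all genes were called lower and 9.87% higher on HFD, so the shares of the 39 genes were again not above those of all genes. The levels of the genotypes did not overlap for 1 of the 39 genes, Bckdhb, compared with 11.4% of all genes. The median log2 fold change of the 39 genes was -0.07, with 26 of 39 below 0, and this direction turned with total counts as library sizes, to a median of 0.06 with 16 of 39 below 0. It was -0.17 with the GC trend removed, -0.21 without mouse 4 and -0.04 without mouse 1 of Adn-Lpin1-/- HFD, and -0.12 without mouse 3 of WT HFD. The median of all tested genes was 0.00 in the main fit, 0.13 with total counts and -0.05 with the GC trend removed. It was above the median of the 39 genes in each of these fits.

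**Figure D2:**
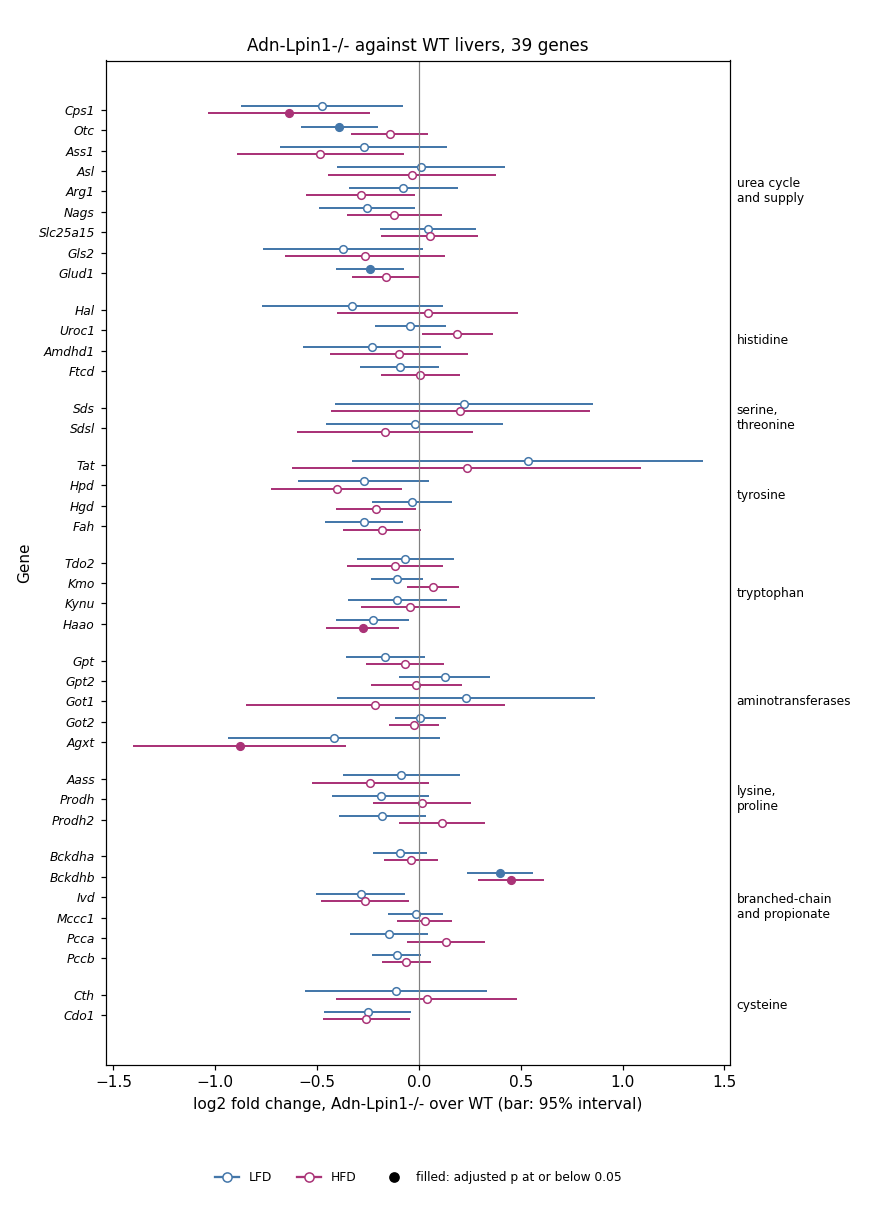
Log2 fold change of Adn-Lpin1-/- over WT (x axis) for the 39 genes (y axis, ordered by role) on LFD (blue) and HFD (magenta), with bars for the 95% interval of the edgeR fit and filled symbols for an adjusted p at or below 0.05. Bckdhb is filled on both diets at 0.40 and 0.45, Otc and Glud1 are filled on LFD, and Cps1, Haao and Agxt on HFD.

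Because these are bulk livers, fewer cells of a type and less RNA per cell cannot be told apart, and the p-values measure the spread between the mice sequenced. Markers of several cell types moved with genotype. The summed level of 5 hepatocyte markers was between 104300 and 114600 CPM in WT LFD and between 75280 and 99440 CPM in Adn-Lpin1-/- LFD, and between 94820 and 121700 CPM in WT HFD and 79480 and 102600 CPM in Adn-Lpin1-/- HFD. Of the 5, 1 was called lower on LFD and 4 on HFD by edgeR. Alb alone was between 55510 and 87680 CPM over the 20 mice, so most of each sum was Alb. Among markers of other cells, 5 of 8 stellate cell genes, 0 of 6 macrophage genes and 2 of 5 sinusoidal endothelial genes were called higher on LFD, and 3 of 8, 5 of 6 and 3 of 5 on HFD. None of the 4 cholangiocyte markers or the 2 lymphocyte markers tested was called on either diet. The shares over all genes were 6.27% higher and 8.11% lower on LFD, and 9.87% higher and 8.78% lower on HFD. The 4 lymphocyte markers summed to between 1.82 and 5.73 CPM over the 20 mice, the adipocyte markers Plin1, Lep and Retn were at 0 in some mice and reached at most 0.116 CPM, and the pancreas markers summed to at most 2.37 CPM. Adipocyte markers summed to between 0.261 and 4.63 CPM in WT LFD and 1.80 and 36.1 CPM in Adn-Lpin1-/- LFD, and to between 1.42 and 16.6 CPM in WT HFD and 3.96 and 184 CPM in Adn-Lpin1-/- HFD. Over the 20 mice Cfd ranged from 0.180 to 184 CPM and Adipoq from 0 to 4.32 CPM, so the highest sums were mostly Cfd. The adipocyte marker that could be tested, Cfd, was called higher on both diets, with log2 fold changes of 3.76 and 3.81 (edgeR). Of 8 pericentral hepatocyte genes, among them Oat and Slc1a2 of the wider list of amino acid genes, 3 were called lower on LFD and 4 on HFD. The part of these cell type differences in the results for the 39 genes was not tested.

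**Figure D3:**
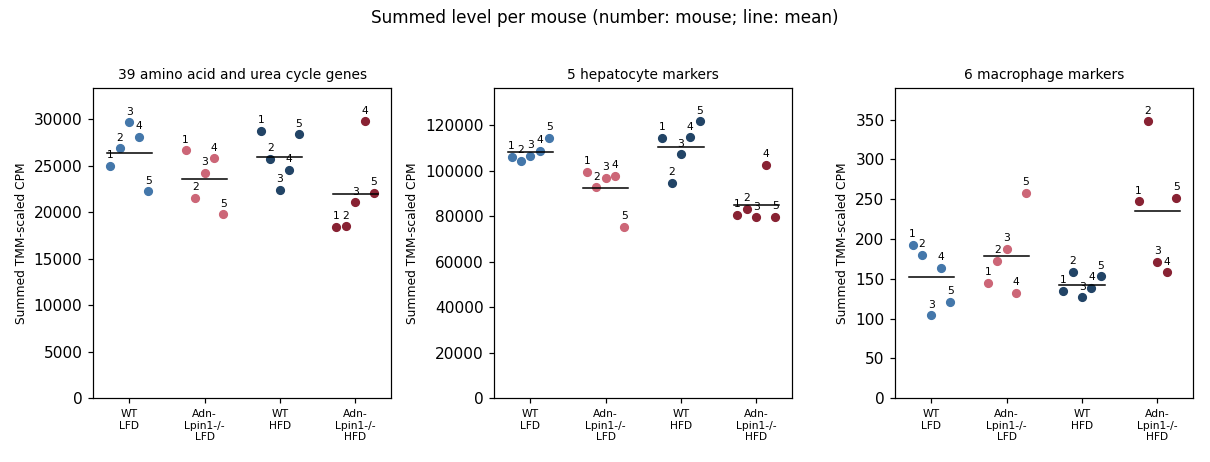
Summed CPM per mouse of the 39 genes (left), of 5 hepatocyte markers (middle) and of 6 macrophage markers (right), by group, with the mouse number at each point and a line at the group mean. In Adn-Lpin1-/- HFD, mouse 4 is highest for the 39 genes at 29760 CPM and for the hepatocyte markers at 102600 CPM, and lowest for the macrophage markers at 158 CPM.

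The urea cycle group had the lowest median of the 9 roles on LFD, and the tyrosine group, at -0.20, had the lowest on HFD. The 9 genes of the urea cycle group had a median log2 fold change of -0.25 on LFD and -0.16 on HFD, with 7 of 9 and 8 of 9 below 0. The called genes were Otc and Glud1 on LFD and Cps1 on HFD, 3 genes that encode enzymes of the mitochondrial matrix. Of all genes, 8.11% were called lower on LFD and 8.78% on HFD. The summed level of the 9 genes was 11440 ± 1732 CPM in WT LFD and 9422 ± 1441 CPM in Adn-Lpin1-/- LFD, and 11240 ± 1544 CPM in WT HFD and 8525 ± 2101 CPM in Adn-Lpin1-/- HFD (SD, n = 5). Ass1 and Cps1 were the largest parts of these sums. On LFD their means were 3703 and 3481 CPM in WT and 3070 and 2501 CPM in Adn-Lpin1-/-, and neither was called there.

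Cps1 (ENSMUSG00000025991; chromosome 1, 67123026 to 67231259, plus strand, GRCm38) encodes the first enzyme of the cycle. Its level was 3092, 4234, 4045, 3562 and 2475 CPM in the WT LFD mice 1 to 5, and 3033, 2299, 2501, 3033 and 1639 CPM in the Adn-Lpin1-/- LFD mice. On HFD it was 3578, 3522, 2876, 2867 and 3650 CPM in WT and 1709, 1542, 1834, 2872 and 2656 CPM in Adn-Lpin1-/- mice. The genotypes overlapped on both diets, on HFD only through mouse 4 of Adn-Lpin1-/-, which lay just above the lowest WT mouse. The log2 fold change was -0.64 ± 0.19 (SE) on HFD (adjusted p = 0.025, edgeR) and -0.48 ± 0.19 on LFD (adjusted p = 0.095, edgeR), and the difference between the diets was -0.16 with a 95% interval from -0.71 to 0.39. In the exact permutation test of 5 mice against 5 on log2(CPM + 1), which is two-sided and can reach 0.00794 at the least, p was 0.0159 on HFD and 0.0476 on LFD. The call on HFD was lost without mouse 1, 2 or 3 of Adn-Lpin1-/- or mouse 2 of WT (adjusted p between 0.052 and 0.073 in edgeR, in a range from 0.00026 to 0.073 over the 31 alternatives).

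Otc (ENSMUSG00000031173; chromosome X, 10252305 to 10321024, plus strand) was at 410, 441, 462, 448 and 373 CPM in WT LFD and at 368, 300, 293, 332 and 337 CPM in Adn-Lpin1-/- LFD. Every Adn-Lpin1-/- LFD mouse was below every WT LFD mouse, with a gap of a few CPM between the nearest mice. The log2 fold change was -0.39 ± 0.09 (adjusted p = 0.0061, edgeR; exact permutation p = 0.00794), and this call held in all 31 alternatives. On HFD the levels were 433, 409, 394, 390 and 439 CPM in WT and 341, 309, 380, 436 and 402 CPM in Adn-Lpin1-/-, which overlapped. The log2 fold change on HFD was -0.14, with a 95% interval from -0.33 to 0.04, and the difference between the diets was 0.25, with an interval from -0.01 to 0.51.

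Glud1 (ENSMUSG00000021794; chromosome 14, 34310727 to 34345144, plus strand) was at 989, 878, 1016, 871 and 884 CPM in WT LFD and at 805, 824, 781, 743 and 773 CPM in Adn-Lpin1-/- LFD. The LFD groups did not overlap. The log2 fold change was -0.24 ± 0.08 (adjusted p = 0.046, edgeR; exact permutation p = 0.00794), and 17 of the 31 alternatives ended this call, among them the omission of any mouse of Adn-Lpin1-/- LFD, of mouse 1, 2, 3 or 4 of WT LFD, of mouse 1, 3 or 4 of WT HFD or of mouse 2 of Adn-Lpin1-/- HFD, and total counts as library sizes (log2 fold change -0.14, adjusted p = 0.20, in a range from 0.0017 to 0.20 over the alternatives). On HFD the WT mice were at 1072, 1085, 1068, 1015 and 822 CPM and the Adn-Lpin1-/- mice at 839, 857, 967, 998 and 866 CPM, with mouse 5 of WT below all of the Adn-Lpin1-/- mice.

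The other 6 genes of this group did not pass the test by genotype on either diet. Ass1 had log2 fold changes of -0.27 (95% interval -0.68 to 0.14) on LFD and -0.48 (-0.89 to -0.08) on HFD. Arg1, which splits arginine into urea and ornithine, had values of -0.08 and -0.29, and Gls2, the liver glutaminase, had values of -0.37 and -0.27. For Nags, which makes the N-acetylglutamate that activates carbamoyl-phosphate synthase, they were -0.25 and -0.12. Asl (argininosuccinate lyase) was at 0.01 and -0.04, and Slc25a15, the mitochondrial ornithine carrier, at 0.04 and 0.05, with intervals of Asl from -0.40 to 0.42 and from -0.44 to 0.37. A p that misses the threshold does not show that the levels were alike.

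Among the 5 aminotransferases, Agxt was the called gene, on HFD. Agxt (ENSMUSG00000026272; chromosome 1, 93135240 to 93145421, plus strand) was at 355, 281, 300, 288 and 600 CPM in WT HFD and at 130, 148, 168, 330 and 215 CPM in Adn-Lpin1-/- HFD. In Adn-Lpin1-/- HFD, 4 of the 5 mice were below all WT HFD mice, and mouse 4 was inside their range. The log2 fold change was -0.88 ± 0.25 (adjusted p = 0.020, edgeR; exact permutation p = 0.0317). Mouse 5 of WT was far above the others of its group, and without it the value was -0.64 and the call was lost (adjusted p = 0.065, edgeR, the highest over the 31 alternatives, whose lowest was 8.2e-05). The call was also lost without mouse 1 or 2 of Adn-Lpin1-/- HFD, whereas without mouse 4 of that group the value was -1.15. On LFD the levels were 291, 324, 302, 284 and 231 CPM in WT and 237, 218, 290, 199 and 127 CPM in Adn-Lpin1-/- mice, with a log2 fold change of -0.42 (95% interval -0.93 to 0.10). The exact permutation p of Agxt on LFD was 0.0476.

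The alanine aminotransferases Gpt and Gpt2 and the aspartate aminotransferases Got1 and Got2 did not pass the test. Among these 4, Got2 had the narrowest interval, with log2 fold changes of 0.01 (95% interval -0.11 to 0.13) on LFD and -0.02 (-0.14 to 0.10) on HFD. Got1 had the widest, at 0.23 (-0.40 to 0.86) on LFD and -0.21 (-0.84 to 0.42) on HFD.

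In tryptophan breakdown, Haao was the called gene, on HFD. Haao (ENSMUSG00000000673; chromosome 17, 83831356 to 83846790, minus strand) was at 626, 566, 506, 555 and 563 CPM in WT HFD and at 424, 405, 513, 539 and 446 CPM in Adn-Lpin1-/- HFD. Mice 3 and 4 of Adn-Lpin1-/- HFD were above the lowest WT mouse, so the groups overlapped. The log2 fold change was -0.27 ± 0.08 (adjusted p = 0.028, edgeR; exact permutation p = 0.0238), and it was -0.15 with total counts as library sizes (adjusted p = 0.14, in a range from 0.00013 to 0.14 over 31 alternatives, of which 7 ended the call, among them the omission of mouse 1, 2 or 5 of Adn-Lpin1-/- HFD or mouse 1 or 2 of WT HFD). On LFD the levels were 625.1, 626, 616, 609 and 544 CPM in WT and 584, 481, 520, 523 and 470 CPM in Adn-Lpin1-/- mice, with a log2 fold change of -0.23 (adjusted p = 0.073, edgeR). The exact permutation p of Haao on LFD was 0.0159. Tdo2, which opens the tryptophan ring, Kmo (kynurenine 3-monooxygenase) and Kynu (kynureninase) had values of -0.07, -0.11 and -0.11 on LFD and -0.12, 0.07 and -0.04 on HFD, none of which passed the test.

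Bckdhb rose in Adn-Lpin1-/- livers on both diets. Bckdhb (ENSMUSG00000032263; chromosome 9, 83925145 to 84124240, plus strand) was at 56.4, 57.6, 65.5, 66.8 and 68.6 CPM in WT LFD and at 79.2, 80.0, 76.01, 80.6 and 99.3 CPM in Adn-Lpin1-/- LFD. On HFD it was at 64.6, 76.1, 66.5, 64.7 and 63.2 CPM in WT and at 97.5, 88.1, 89.2, 92.7 and 90.9 CPM in Adn-Lpin1-/- mice. On HFD the lowest Adn-Lpin1-/- mouse was above the highest WT mouse by more than the SD of either group, and on LFD the groups did not overlap either. The log2 fold changes were 0.40 ± 0.08 on LFD (adjusted p = 0.0018) and 0.45 ± 0.08 on HFD (adjusted p = 0.00058), both from edgeR, the exact permutation p was 0.00794 on each diet, and both calls held in all 31 alternatives. Its level did not pass the test by diet in either genotype.

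The partner of this subunit and the other genes of the group were not called on either diet. Bckdha, the E1 alpha subunit, had log2 fold changes of -0.09 (95% interval -0.22 to 0.03) on LFD and -0.04 (-0.17 to 0.09) on HFD. Ivd, the isovaleryl-CoA dehydrogenase of leucine breakdown, was at -0.29 and -0.26 (adjusted p = 0.066 and 0.074, edgeR). For Mccc1 the values were -0.02 and 0.03, and for the propionyl-CoA carboxylase subunits they were -0.15 and 0.13 (Pcca) and -0.11 and -0.06 (Pccb). Bckdhb overlaps 3 annotated genes on the other strand (Gm29164, Gm29163 and Gm46124), and the sources used here do not state whether the counting used strand. The same limit holds for Nags, Gls2, Sds, Hpd, Hgd, Kmo, Got2, Prodh, Bckdha, Mccc1 and Pcca, which also overlap a gene on the other strand. Among 30 tested genes within 5 Mb of Bckdhb, a window chosen after seeing the data, 3 were called higher and 6 lower on LFD and 3 higher and 5 lower on HFD in edgeR's test, where all genes had shares of 6.27% higher and 8.11% lower on LFD and 9.87% and 8.78% on HFD.

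**Figure D4:**
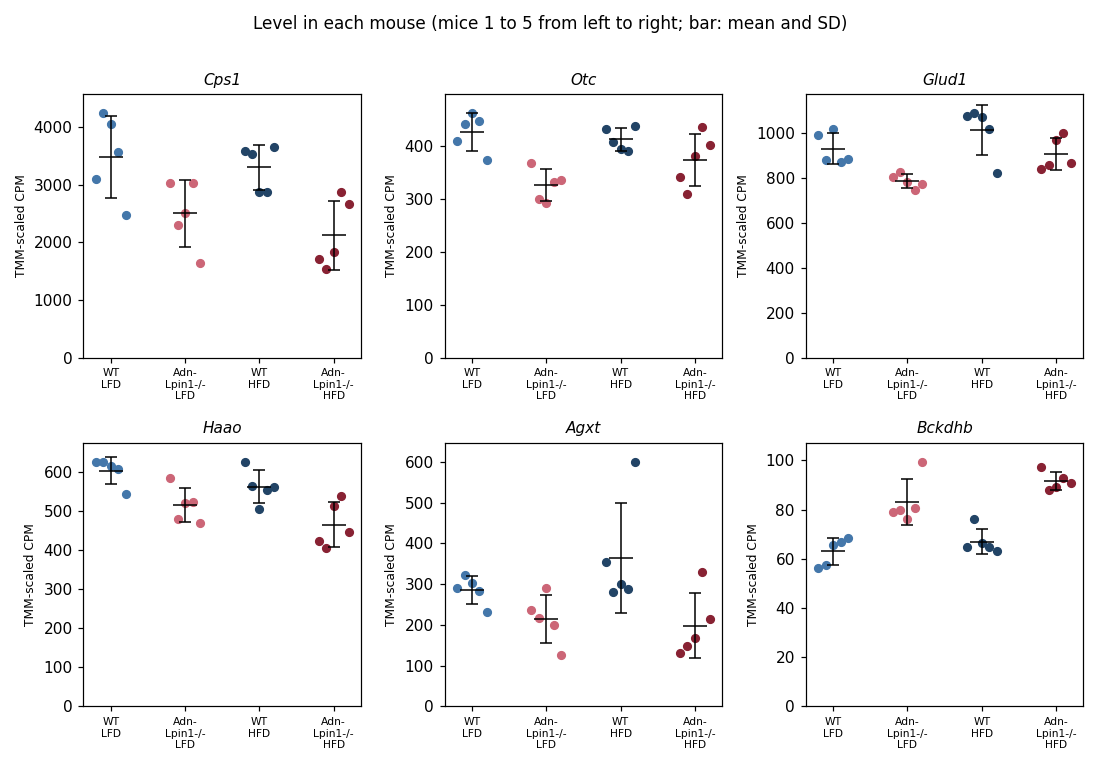
CPM of the 6 called genes in each mouse (points, mice 1 to 5 from left to right) by group, with the mean and SD (n = 5) as bars and axes that start at 0. Bckdhb separates the genotypes on both diets, Otc and Glud1 on LFD, and for Cps1, Haao and Agxt the genotypes overlap on HFD.

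Windows upstream of the start sites were read from the RefSeq promoter table (GRCm38.p6), which matched 29 of the 39 genes. Gls2, Kynu, Cps1, Sdsl, Gpt, Sds, Cth, Cdo1, Asl and Arg1 were not matched. The full cAMP response element TGACGTCA, the palindrome TTGCGCAA of the C/EBP family and the HNF4 site CAAAGTCCA, each searched on both strands in the 250 bases before the start, were in 0 of the 29, and in 1.55%, 0.164% and 0.384% of the 32851 windows of the table. Looser forms were searched after seeing the data. TTNNGNAA was in 10 of the 29 (34.5%, against 36.8% of all), and TGTTCT, the core of a glucocorticoid receptor element, was in 4 of the 29 (13.8%, against 16.1% of all). The 250 bases before the start are shown for the called genes that hold a looser form, so that the letters behind these counts can be read, 5′ to 3′ on the gene's strand, with the matches in capitals. They are matches on either strand, to TTNNGNAA in Otc and to TGTTCT in Agxt, Haao and the first of the 2 RefSeq starts of Bckdhb. The matches are letters in a window and not measured binding.
Otc, chrX:10252055-10252304, plus strand: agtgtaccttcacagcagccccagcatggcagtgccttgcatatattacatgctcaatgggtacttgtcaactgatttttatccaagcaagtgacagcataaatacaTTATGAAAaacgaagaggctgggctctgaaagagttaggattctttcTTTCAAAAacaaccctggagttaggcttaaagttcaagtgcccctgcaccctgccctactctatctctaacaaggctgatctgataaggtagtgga
Agxt, chr1:93134990-93135239, plus strand: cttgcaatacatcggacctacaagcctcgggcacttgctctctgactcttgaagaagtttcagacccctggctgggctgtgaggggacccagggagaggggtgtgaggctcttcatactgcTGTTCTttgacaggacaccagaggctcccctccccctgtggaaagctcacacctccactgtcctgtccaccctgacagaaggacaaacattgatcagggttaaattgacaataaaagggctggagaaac
Haao, chr17:83846791-83847040, minus strand: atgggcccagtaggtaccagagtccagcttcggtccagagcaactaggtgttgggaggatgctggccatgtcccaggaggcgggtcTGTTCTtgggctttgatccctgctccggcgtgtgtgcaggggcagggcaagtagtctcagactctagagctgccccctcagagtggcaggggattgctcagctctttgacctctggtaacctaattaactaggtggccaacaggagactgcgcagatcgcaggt
Bckdhb, chr9:83924887-83925136, plus strand: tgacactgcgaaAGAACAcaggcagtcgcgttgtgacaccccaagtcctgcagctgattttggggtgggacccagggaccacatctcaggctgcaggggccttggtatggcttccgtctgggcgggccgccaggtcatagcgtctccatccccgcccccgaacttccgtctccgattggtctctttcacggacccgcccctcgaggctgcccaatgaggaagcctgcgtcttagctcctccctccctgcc

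In Glud1 the same window held neither looser form.

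Among the tyrosine genes, none passed the test by genotype. Fah, the last enzyme of the pathway, was just outside the threshold on LFD with a log2 fold change of -0.27 ± 0.09 (adjusted p = 0.0501, edgeR), and Hpd was at -0.27 on LFD and -0.40 on HFD (95% interval -0.72 to -0.09, adjusted p = 0.067, edgeR). Hgd (homogentisate dioxygenase) was at -0.03 and -0.21. Tat was at 0.53 on LFD and 0.23 on HFD with intervals from -0.32 to 1.39 and from -0.62 to 1.09, the widest among the 39 genes. In Adn-Lpin1-/- HFD, Tat was at 571, 663, 924, 2454 and 460 CPM, so mouse 4 was above the other 4 mice by more than their own range.

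The 4 histidine genes, Hal (histidine ammonia-lyase), Uroc1 (urocanase), Amdhd1 and Ftcd, had log2 fold changes between -0.33 and -0.04 on LFD and between -0.10 and 0.19 on HFD, and none was called. Of the serine dehydratase genes, Sds was at 0.22 and 0.20 and Sdsl at -0.02 and -0.16. In lysine and proline breakdown, Aass was at -0.09 and -0.24, and the proline dehydrogenase gene Prodh at -0.19 and 0.01 and the hydroxyproline dehydrogenase gene Prodh2 at -0.18 and 0.11. Of the cysteine genes, Cdo1, which commits cysteine to taurine and sulfate, was at -0.25 and -0.26 (adjusted p = 0.095 and 0.074, edgeR) and Cth (cystathionine gamma-lyase) at -0.11 and 0.04.

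A single mouse carried weight in the HFD comparison. Mouse 4 of Adn-Lpin1-/- HFD had the highest level of its group in 33 of the 39 genes. The highest such count was 24 in Adn-Lpin1-/- LFD (mouse 1), 18 in WT LFD (mouse 3) and 16 in WT HFD (mouse 1). The share over all tested genes was not computed. The summed level of mouse 4 of Adn-Lpin1-/- HFD was 29760 CPM, where the other 4 were at 18460, 18480, 21060 and 22060 CPM. The sum of the hepatocyte markers was 102600 CPM in this mouse and between 79480 and 83180 CPM in the other 4. Without it, 11 of the 39 genes were called on HFD in place of 4, with Arg1, Ass1, Cdo1, Fah, Hgd, Hpd and Ivd lower in addition, and the median log2 fold change was -0.21 with 33 of 39 below 0. Over all 13052 genes the same omission gave 1403 called higher and 1353 lower, in place of 1288 and 1146. On LFD, the omission of mouse 5 of WT, which had the lowest level of its group in 19 of the 39 genes, gave 7 called genes in place of 3, with Cps1, Fah, Haao and Ivd lower in addition, and over all genes 835 called higher and 1096 lower, in place of 818 and 1059. The omission of mouse 1 of Adn-Lpin1-/- LFD or of mouse 4 of Adn-Lpin1-/- HFD gave 5 called genes on LFD. In the other direction, 1 gene (Bckdhb) was called on HFD without mouse 1 or mouse 2 of Adn-Lpin1-/- HFD, and 2 (Bckdhb and Agxt) without mouse 2 of WT HFD. Over all genes these 3 omissions gave 944 higher and 879 lower, 742 higher and 733 lower, and 904 higher and 850 lower.

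Comparison of HFD with LFD addressed the effect of diet in each genotype. In WT livers, 0 of the 39 genes passed edgeR's test, compared with 1.1% of all genes. By the same test 4 of the 39 had an unadjusted p under 0.05, as did 2059 of the 13052 genes tested. These 4 were Sds at a log2 fold change of -0.65 (95% interval -1.28 to -0.01), Ftcd at -0.21, Pcca at -0.24, and Tdo2 at 0.25. The DESeq2 Wald test called 0 and limma's voom called 1 (Ftcd). In Adn-Lpin1-/- livers 0 of the 39 genes passed edgeR's test as well, compared with 2.46% of all genes, and both DESeq2 and voom called 0. By edgeR, 9 of the 39 had an unadjusted p under 0.05, as did 2097 of the 13052 genes tested. Of the 9, Sds was at -0.66 (95% interval -1.29 to -0.03), Got1 at -0.72 (-1.35 to -0.09), Arg1 at -0.29, Aass at -0.30, Hgd at -0.23, Otc at 0.20, Glud1 at 0.20, Uroc1 at 0.17 and Kmo at 0.18. Without mouse 4 of Adn-Lpin1-/- HFD, 2 genes, Arg1 and Tat, were called lower on HFD. Over all genes this omission gave 134 higher and 182 lower, in place of 156 and 165.

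Sds, which turns serine into pyruvate and is shown by mouse, as Tat was, after its values were seen, had levels of 178, 192, 237, 220 and 125 CPM in WT LFD and 205, 100, 57.5, 96.2 and 150 CPM in WT HFD. In Adn-Lpin1-/- mice they were 276, 172, 274, 245 and 144 CPM on LFD and 77.6, 108, 142, 237 and 137 CPM on HFD. The diets overlapped in both genotypes, through mouse 1 of WT HFD and mouse 4 of Adn-Lpin1-/- HFD among others.

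**Figure D5:**
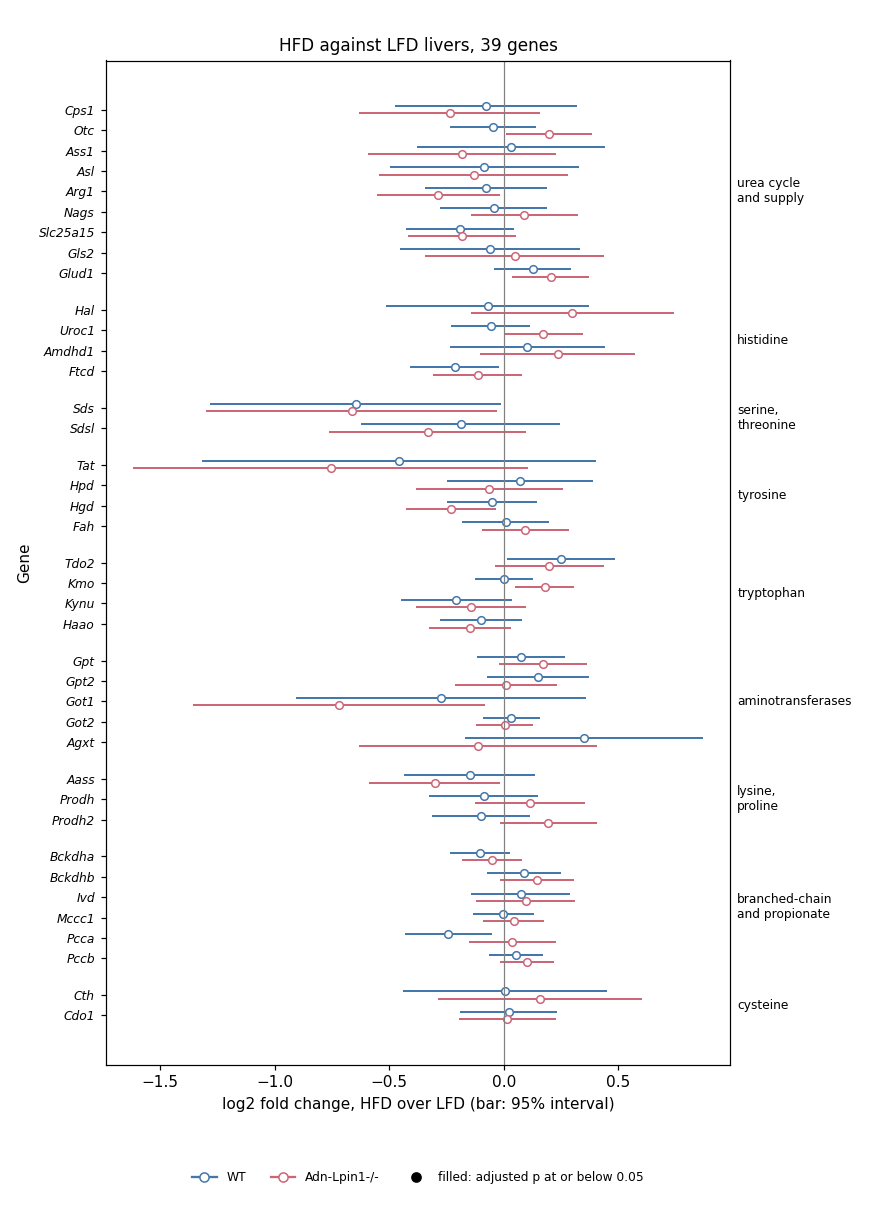
Log2 fold change of HFD over LFD (x axis) for the 39 genes (y axis, ordered by role) in WT (blue) and Adn-Lpin1-/- mice (red), with bars for the 95% interval of the edgeR fit. No symbol is filled, as none of the 39 genes passed the threshold, and the lowest values are those of Tat, Got1 and Sds.

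Whether genotype had a different effect on HFD than on LFD was tested as an interaction. None of the 39 genes passed edgeR's test, where the share called among all genes was 0, and 2 had an unadjusted p under 0.05. These were Pcca with a difference of 0.28 (95% interval 0.02 to 0.54) and Kmo with 0.18 (0.00 to 0.35). DESeq2 and voom called 0 of the 39 genes. Over all genes, 938 had an unadjusted p under 0.05, edgeR and voom called 0, and DESeq2 called 30. The effects of Otc and Glud1 on LFD and of Cps1, Haao and Agxt on HFD were therefore not shown to differ between the diets.

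A wider list of 108 genes of amino acid metabolism, transport and regulation, without the 39, was tested beside them, and 99 passed the limit on low counts. In Adn-Lpin1-/- livers 15 of the 99 fell and 2 rose on LFD, and 22 fell and 5 rose on HFD. Of all genes, 8.11% were called lower and 6.27% higher on LFD, and 8.78% lower and 9.87% higher on HFD. The medians of the 99 log2 fold changes were -0.10 and -0.09. Among called genes, the largest decreases on LFD were those of Kyat3, a kynurenine aminotransferase (-1.41 ± 0.29, adjusted p = 0.0034), Slc1a2, a glutamate transporter of pericentral hepatocytes (-0.61 ± 0.12, adjusted p = 0.0027), and Ido2, an indoleamine dioxygenase (-0.52 ± 0.09, adjusted p = 0.00060), by edgeR. The genes that rose on LFD were Csad, the cysteine sulfinate decarboxylase of taurine synthesis (1.58 ± 0.27, adjusted p = 0.00071), and Slc25a22, a mitochondrial glutamate carrier (0.58 ± 0.16, adjusted p = 0.021), by edgeR. Kyat3 overlaps Gm15540 on the other strand.

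On HFD the largest decreases among called genes were those of Asns, the asparagine synthetase (-2.29 ± 0.64, adjusted p = 0.018), Kyat3 (-1.09 ± 0.29, adjusted p = 0.014) and Slc3a1, a subunit of a cystine transporter (-0.82 ± 0.17, adjusted p = 0.0030), by edgeR. For Asns, mouse 5 of WT HFD decided the value, which was -1.16 without it (adjusted p = 0.12 by edgeR, in a range from 0.0032 to 0.12 over the alternatives). The largest increases among them were those of Slc38a1, a glutamine transporter (1.23 ± 0.29, adjusted p = 0.0074), Pycr1 of proline synthesis (0.99 ± 0.23, adjusted p = 0.0067), and Slc7a8, a transporter of neutral amino acids (0.84 ± 0.25, adjusted p = 0.027), by edgeR. The call of Slc7a8 was lost without mouse 1 or 2 of Adn-Lpin1-/- HFD or mouse 1, 3 or 4 of WT HFD, and its value was 0.57 without mouse 2 of Adn-Lpin1-/-.

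Beyond the named rule of the 3 largest changes in each direction, the genes called lower on both diets included Dbt, the E2 subunit of the same dehydrogenase that holds the Bckdhb product, at -0.36 on LFD and -0.36 on HFD, and the regulators Nr3c1, the glucocorticoid receptor, at -0.46 and -0.37, and Cebpa at -0.31 and -0.31. These 3 were chosen after their values were seen. Oat, ornithine aminotransferase, was at -0.20 (not called) on LFD and fell by 0.79 on HFD, and was also chosen after its value was seen. Of the 15 known regulators of these genes, 2 were called lower on LFD and 3 on HFD, and 0 were called higher, where the shares of all genes called lower were 8.11% and 8.78% and those called higher 6.27% and 9.87%.

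By diet, 4 of the 99 genes rose and 0 fell in WT livers, and 5 rose and 1 fell in Adn-Lpin1-/- livers, where 1.1% and 2.46% of all genes were called in either direction. The genes of WT were Slc3a1 (0.93 ± 0.17), Suox, the sulfite oxidase (0.34 ± 0.08), Mccc2, the other subunit of methylcrotonyl-CoA carboxylase (0.27 ± 0.06), and Grhpr, a glyoxylate reductase (0.25 ± 0.06). Those that rose in Adn-Lpin1-/- were Ido2 (0.68 ± 0.09), Sardh, the sarcosine dehydrogenase (0.64 ± 0.09), Amt of the glycine cleavage system (0.36 ± 0.09), Suox (0.33 ± 0.08) and Grhpr (0.23 ± 0.06), and Slc25a22 fell by 0.76. Their adjusted p-values in edgeR's test ranged from 0.00018 for Ido2 to 0.048 for Amt. Of the 31 alternatives, 25 ended the call of Amt in Adn-Lpin1-/-, 11 that of Suox in WT and 10 that of Mccc2 in WT. In the interaction, 0 of the 99 genes were called by edgeR, and DESeq2 called 1 and voom 0. By edgeR, 9 of the 99 had an unadjusted p under 0.05, compared with 938 of the 13052 genes tested.

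For most of the 39 genes the pooled library was neither above nor below all 5 mice that matched it. This held for 39 genes of WT LFD, 38 of Adn-Lpin1-/- LFD, 38 of WT HFD and 37 of Adn-Lpin1-/- HFD, on CPM without TMM scaling.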

How the data were processed

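Poly(A) RNA of 20 single livers and 4 pooled libraries was sequenced. The authors aligned reads with STAR 2.5.1a to GRCm38 (Ensembl release 76) and counted them with featureCounts 1.4.6-p5, and deposited a table of counts per gene and a table of RPKM scaled to total counts. The strand setting was not given in the sources used here. CPM were computed here from the deposited counts.

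Of 41388 genes, 355 ribosomal RNA genes were left out, and the 13052 genes that exceeded 1 CPM in 4 or more of the 20 mice were tested. Symbols were matched for 97.3% of the IDs. Total counts were between 36260187 and 81072794 per mouse. edgeR 4.0.16 (R 4.3.3) fitted 4 group means with TMM scaling and its quasi-likelihood test, with Benjamini-Hochberg adjustment over all genes and a threshold of 0.05. Exact permutation tests of 5 against 5 used log2(CPM + 1). Except in the alternatives with pools, p-values measure the spread between single mice. Pooled libraries entered only alternatives. By its label, each pool is RNA of the same mice of its group, so it is not an independent animal. Adjusted p-values and calls from fits with pools therefore do not measure the spread between independent mice. The ranges over the alternatives include these fits.

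Alternatives were DESeq2 1.42.0 size factors and its Wald test, limma 3.58.1 voom with quality weights (the test named in the study's methods), pools as sixth libraries, other filters on low counts, only the groups compared, a replicate block, and each mouse left out. Scaling by total counts, removal of the GC trend, the looser motifs, the window around Bckdhb, and the sums and ranks per mouse were chosen after seeing the data. Scripts were tested on simulated data, with the pass criteria revised once after the first were missed and the fits left as they were. The 39 genes and all lists were chosen with earlier results of these data known. All 39 genes are accounted for, called ones with standard error and adjusted p and by mouse, and the wider list gives the 3 largest called changes in each direction per comparison. The authors' RPKM were used only for levels between genes. Figures were drawn with matplotlib 3.10.9, and tables with Python 3.11.15, numpy 2.4.6, pandas 2.3.3 and scipy 1.17.1.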

Additional observations from a re-analysis of the deposited data

Results flagged for a closer look

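In groups of 5 mice, 8 of the 156 combinations of gene and group had a highest or lowest mouse far from the others, and chance flags about 1 in 20 groups. Mouse 4 of Adn-Lpin1-/- HFD was highest for Tat at 2454 CPM (next mouse 923.9) and for Cth at 382.3 CPM (next mouse 195.8). Mouse 5 of WT HFD was highest for Agxt at 599.6 CPM (next mouse 355.1) and lowest for Glud1 at 821.7 CPM (next mouse 1015). Mouse 5 of WT LFD was lowest for Haao at 544.0 CPM (next mouse 608.7) and highest for Pcca at 99.72 CPM (next mouse 85.08). For Bckdhb, mouse 5 of Adn-Lpin1-/- LFD was highest at 99.31 CPM (next mouse 80.63) and mouse 2 of WT HFD at 76.11 CPM (next mouse 66.48), and neither brought the genotypes into overlap.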

How the results depend on the processing

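The called members, and the 3 largest called changes of the wider list in each direction, kept their direction under the 31 alternatives; single genes outside these were not followed. With total counts as library sizes, the genes below 0 among the 39 went from 31 to 22 on LFD and from 26 to 16 on HFD, and their median on HFD turned from -0.07 to 0.06. The median of all tested genes on HFD moved from 0.00 to 0.13 with the same change. Of the 39 genes, edgeR called 3 on LFD and 4 on HFD; DESeq2's Wald test called 5 and 7, voom 7 and 6, pools as sixth libraries 9 and 11, voom with pools 20 and 16, removal of the GC trend 11 and 10, and a fit of only the groups compared 3 and 2. Over all genes, higher and lower calls on LFD and on HFD were 818 and 1059, and 1288 and 1146, in edgeR; 1045 and 1203, and 1532 and 1385, in DESeq2; 931 and 1286, and 1274 and 1173, in voom; 1396 and 1612, and 1857 and 1903, with pools; 1979 and 2184, and 2271 and 2469, in voom with pools; and 657 and 914, and 1081 and 901, for only the groups compared. By diet, where edgeR called 0, voom called 1 in WT, pools 1 in Adn-Lpin1-/-, and voom with pools 5 in WT and 12 in Adn-Lpin1-/-. Over all genes, calls by diet in WT were 56 higher and 88 lower in edgeR, and 309 and 361 in voom. They were 318 and 369 with pools, and 974 and 964 in voom with pools. In Adn-Lpin1-/- they were 281 and 296 in DESeq2, 457 and 501 with pools, and 1165 and 1177 in voom with pools. Leaving out each mouse gave 2 to 7 genes on LFD, 1 to 11 on HFD, 0 by diet in WT, 0 to 2 by diet in Adn-Lpin1-/- and 0 for the interaction. Over all genes the same omissions gave 1210 to 1959 calls on LFD, 1475 to 2756 on HFD and 123 to 378 by diet in Adn-Lpin1-/-. In the wider list, pools gave 30 on LFD in place of 17, voom with pools 38 on LFD and 42 on HFD (in place of 27), and removal of the GC trend 27 on LFD. By diet in WT, in place of 4, voom gave 11, pools 9, voom with pools 26, and no filter or only the groups compared 1 each. By diet in Adn-Lpin1-/-, in place of 6, DESeq2's Wald test gave 12, pools 20, voom with pools 34, no filter or only the groups compared 3 each, and total counts 10. For the interaction, in place of 0, DESeq2's Wald test gave 1 and voom with pools 4. Over all genes they called 14 higher and 16 lower, and 91 higher and 98 lower. Leaving out each mouse gave 14 to 21 on LFD, 21 to 29 on HFD, 1 to 6 by diet in WT, 2 to 9 by diet in Adn-Lpin1-/- and 0 for the interaction. Over all genes, the calls by diet in Adn-Lpin1-/- were 156 higher and 165 lower, and 254 and 102 with total counts. The cause of these differences was not tested. Fits with pools enter RNA of the same mice again, so their calls do not rest on independent mice alone. The replicate numbers did not pair the mice (mean correlations of same-numbered deviations from -0.064 to 0.031). With a replicate block, 2 of the 39 genes were called on LFD and 4 on HFD, and 1 gene of the wider list by diet in WT. Over all genes the block gave 659 higher and 873 lower on LFD, and 1063 and 949 on HFD. The number of mice, 5 per group, limits the precision; the lowest count of any of the 39 genes was 549.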
